A study of Mus musculus with 10 samples.

Results

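The genes described here encode the pore-forming subunits of 2 families of channels that set burst firing: the T-type calcium channels Cacna1g, Cacna1h and Cacna1i, and the hyperpolarization-activated cyclic nucleotide-gated (HCN) channels Hcn2, Hcn3 and Hcn4. They were chosen by name and not ranked by their values, though with earlier results of these data known, and are 6 of the 33502 gene symbols counted in this series. Each was followed across the cell types of the tissue, across neurons of the paraventricular thalamus (PVT) and of the regions beside it, and across subtypes of PVT neurons.

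T-type channels open at voltages close to rest and recover from inactivation only when the cell is hyperpolarized, so that a thalamic neuron released from inhibition fires a calcium spike crowned by a burst of action potentials. HCN channels open on hyperpolarization, pass an inward cation current that pulls the cell back toward threshold and are shifted by cAMP, and together the currents set whether thalamic neurons fire rhythmically in bursts or in single spikes. Neither family of transcripts reports the number of channels in the membrane.

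The study profiled single nuclei from punches of the PVT and the tissue around it, taken from C57BL/6J mice aged 12 weeks. The methods describe 4 mice pooled per sample. The 10 libraries fall into 2 sets: 4 whose titles give no sex, which the deposited metadata list as male and which are called the first set here, and 6 labelled female. No group carried a genetic or drug treatment, and the libraries are the replicates throughout. Groups of cells were compared within libraries, so those p-values measure how the differences between groups varied from one pooled preparation to another. In the comparison of the 2 sets of libraries they measure the spread between pooled preparations.

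Together the libraries held 20503 nuclei, between 875 and 7213 in the first set and between 1049 and 1615 in the female set. Depth differed between the sets, with 7568267 to 55956635 unique molecular identifiers (UMIs, single captured RNA molecules) per library in the first set and 5119927 to 12891409 in the female set. The median neuron had 12586 to 21085 UMIs in libraries of the first set and 5617 to 9665 in female ones. The sex-linked transcripts matched the set in every library. A barcode present in more than 1 library was carried by 92 nuclei. Doublets had been called and removed by the authors, and no further caller was run. The defining markers stood highest in the deposited cell type they name, for example Rbfox3 in neurons (232 CPM, UMIs of the gene per 1e6 UMIs of the sum), Mal in oligodendrocytes (2957 CPM) and Agt in astrocytes (1546 CPM).

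The members were captured to very different depths. Over all nuclei Cacna1g had 21071 UMIs, Hcn2 8529, Cacna1i 3956, Hcn4 2969, Hcn3 1902 and Cacna1h 1173. Cacna1h was therefore the least precisely measured, with 228 UMIs in the 6 female libraries together. In the GRCm38 assembly Cacna1g lies on the minus strand of chr11:94408391-94474198, Cacna1h on the minus strand of chr17:25374285-25433783, and Cacna1i on the plus strand of chr15:80287238-80398279. Hcn2 lies on the plus strand of chr10:79716634-79736108, Hcn3 on the minus strand of chr3:89146074-89160196 and Hcn4 on the plus strand of chr9:58823412-58863175. The end of Cacna1h overlaps Tpsg1, and that of Hcn3 overlaps Pklr, each on the opposite strand. No source used here states whether counting used the strand, so reads of these overlaps may not be told apart.

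The first comparison asked which cells of the tissue carried the transcripts. Among the 8 deposited cell types, neurons had the highest mean level of Cacna1g, Cacna1i, Hcn3 and Hcn4, whereas the level of Hcn2 was highest in oligodendrocytes and that of Cacna1h was higher in astrocytes than in neurons. Levels are CPM of the UMIs summed over the nuclei of a type in a library. In such sums, fewer nuclei with the transcript and less transcript per nucleus cannot be told apart.

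Cacna1g encodes Cav3.1, the principal T-type channel of thalamic relay neurons. Its level in neurons was 104 CPM in the lowest library, 156 CPM in the median and 185 CPM in the highest, a mean of 151 ± 22.1 CPM (SD, n = 10). Oligodendrocytes had 11.2 ± 4.98 CPM (n = 10) and astrocytes 6.75 ± 5.67 CPM (n = 10). Every library placed neurons above astrocytes, oligodendrocytes and microglia, and the ranges of neurons and of each of these did not overlap. The range of OPCs (oligodendrocyte precursor cells) did reach that of neurons, through a single library at 122 CPM, and that of fibroblasts reached 133 CPM. Against the mean of the other 7 types Cacna1g was higher in neurons by 3.20 on the log2 scale (SE 0.16, adjusted p = 1.2e-28, edgeR's quasi-likelihood test with Benjamini-Hochberg adjustment). It was lower in astrocytes (log2 fold change -1.85, SE 0.27, adjusted p = 1.7e-08) and in oligodendrocytes (-1.32, SE 0.32, adjusted p = 2.6e-04), where the female libraries alone gave -0.56 and no call (adjusted p = 0.27).

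Hcn2, an HCN subunit with strong cAMP sensitivity that is expressed widely in the brain, had another pattern. Its level in oligodendrocytes was 91.5 CPM in the lowest, 223 CPM in the median and 441 CPM in the highest library, a mean of 245 ± 104 CPM (n = 10). In neurons it was 42.1 CPM in the lowest, 50.5 CPM in the median and 62.3 CPM in the highest library (51.7 ± 6.82, n = 10). The lowest oligodendrocyte value thus lay above the highest neuronal one, and oligodendrocytes exceeded neurons in 10 of 10 libraries. Neurons against oligodendrocytes stood at -2.15 on the log2 scale (SE 0.13, adjusted p = 6.4e-24, edgeR), where 31.1% of the 9789 genes tested were lower. Oligodendrocytes stood 3.70 above the mean of the other types (SE 0.12, adjusted p = 8.2e-40). The precursors of these cells, OPCs, had 36.1 ± 11.9 CPM (n = 9), and neurons were above them by 0.78 (SE 0.21, adjusted p = 0.0011), where 25.7% of genes were higher, a call that was lost in 1 of 17 alternative settings. Astrocytes had 9.60 ± 4.02 CPM (n = 10) and were lower than the mean of the rest (-1.52, SE 0.22, adjusted p = 1e-08). Ependymal cells (-1.31), fibroblasts (-1.65) and microglia (-0.88) were lower too, with adjusted p of 1.6e-04, 0.018 and 0.0033 in edgeR. Fibroblasts held only 6 UMIs of Hcn2 in 179 nuclei (13.2 ± 13.3 CPM, n = 8), so the size of their fold is uncertain. Neurons were called higher than the mean of the others (1.25, SE 0.14, adjusted p = 4e-13), a mean taken over log values. On the CPM scale they exceeded the mean of the other types in 3 of 10 libraries, a mean that includes the oligodendrocytes.

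The proportion of nuclei with a UMI showed the same contrast once each nucleus had been thinned to 2000 UMIs. Hcn2 was seen in 34.0 ± 12.6% of oligodendrocytes, 9.83 ± 1.32% of neurons, 3.13 ± 3.78% of microglia and 1.90 ± 1.47% of astrocytes (n = 10 libraries each). Without thinning the values were 34.9% of oligodendrocytes, at a median of 2311.5 UMIs per nucleus, and 38.3% of neurons, at a median of 11138.5. Oligodendrocytes held 1726 UMIs of Hcn2 beside 87 of Cacna1g, and neurons 6436 beside 20545, so the ratio of the pair differed between the types.

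With all genes that passed the filter on low counts, 2 members could be tested across cell types, Cacna1g and Hcn2. Of their 16 tests against the mean of the other types 9 were called, 3 higher and 6 lower. A call required an adjusted p under 0.05 and an absolute log2 fold change above 0.5. Large parts of the transcriptome met these terms: of 9789 genes, 29.7% were higher and 27.5% lower in neurons, 20.8% and 26.0% in oligodendrocytes, and 21.4% and 19.8% in astrocytes. Of the remaining types, 19.2% of genes were lower in ependymal cells, 9.05% in fibroblasts and 27.3% in microglia. The other 4 members did not pass the filter and were taken from a fit of 28832 genes without it. In that fit 9 of their 32 tests were called, where 29.8% of genes were higher in neurons and 10.2% in OPCs, 17.4% were higher and 7.42% lower in astrocytes, 8.07% were lower in endothelial cells and 10.2% in microglia. The median log2 fold change of all its genes was itself above 0 in neurons, at 0.41 against the mean of the other types. It was 0.18 against astrocytes, 0.38 against OPCs, 0.33 against oligodendrocytes and 0.43 against microglia.

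Cacna1i, which encodes Cav3.3, the slowest-inactivating T-type channel, was at 21.4 CPM in the lowest, 26.7 CPM in the median and 34.3 CPM in the highest library of neurons (27.1 ± 4.60, n = 10). In OPCs it was at 15.5 ± 9.22 CPM (n = 9), and in astrocytes at 1.70 ± 1.26 CPM (n = 10). Neurons did not overlap with astrocytes, oligodendrocytes, microglia, ependymal or endothelial cells, but their range did overlap with that of OPCs. Neurons were above the mean of the other types by 2.87 (SE 0.18, adjusted p = 1.8e-35) and above OPCs by 1.18 (SE 0.28, adjusted p = 2.5e-04, both edgeR without the filter). In the contrast with OPCs, 16.2% of all genes were higher in neurons. OPCs themselves were called above the mean of the other types for Cacna1i (1.52, SE 0.37, adjusted p = 5.9e-04). The means behind this fold and the 2.87 of neurons include endothelial nuclei with 2 UMIs of Cacna1i and fibroblasts with 3. The size of both folds is therefore uncertain. In CPM, OPCs exceeded the mean of the other types in 8 of 9 libraries and neurons in 10 of 10. Hcn3 was called in OPCs too, but the mean of the other types there includes endothelial nuclei without a UMI of Hcn3, so its fold is not given. On the CPM scale OPCs, at 7.65 ± 5.32 CPM from 18 UMIs (n = 9), exceeded the mean of the other types in 6 of 9 libraries.

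Hcn3, an HCN subunit with little response to cAMP, was at 11.8 CPM in the lowest, 14.4 CPM in the median and 17.6 CPM in the highest library of neurons (14.3 ± 1.69, n = 10). Endothelial nuclei gave 0 UMIs of Hcn3 among 717339, which allows a level of up to 4.18 CPM by counting error alone. Hcn4, the slowest-gating HCN subunit and the main one of the cardiac pacemaker, was at 18.4 CPM in the lowest, 23.4 CPM in the median and 26.1 CPM in the highest library of neurons (23.0 ± 2.86, n = 10). For both genes the neuronal range lay above those of astrocytes and oligodendrocytes. Endothelial nuclei, at 13.3 ± 12.9 CPM of Hcn4 from 11 UMIs (n = 7), exceeded neurons in 3 of 7 libraries. Neurons exceeded astrocytes by 1.95 for Hcn3 (SE 0.22, adjusted p = 7.7e-15) and by 2.59 for Hcn4 (SE 0.23, adjusted p = 6e-21) in edgeR without the filter, a contrast in which 23.5% of genes were higher.

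Cacna1h, which encodes Cav3.2, the T-type channel best known from sensory neurons, was the only member for which neurons were not called against the other types' mean (0.24, SE 0.21, adjusted p = 0.40, edgeR without the filter). Its 0.24 lay under the 0.41 of the median gene in this contrast. It was at 4.08 CPM in the lowest, 5.85 CPM in the median and 8.42 CPM in the highest library of neurons (5.90 ± 1.36, n = 10), and at 5.34, 12.8 and 18.1 CPM in astrocytes (12.7 ± 4.45, n = 10). Astrocytes were the higher of the pair on average, with overlapping ranges. For neurons against astrocytes the log2 difference was -1.01 (SE 0.21, adjusted p = 1.3e-05, edgeR without the filter), where 19.7% of genes were lower in neurons. The call was lost with DESeq2 (-0.61, adjusted p = 0.0525) and without the library block (-1.03, adjusted p = 0.0663). After thinning, 2.26 ± 1.02% of astrocytes and 1.28 ± 0.47% of neurons had a UMI, beside 0.44 ± 0.61% of oligodendrocytes and 0.55 ± 1.06% of microglia. The unthinned shares were 3.87% and 5.53% for astrocytes and neurons, at medians of 2991 and 11138.5 UMIs. Against OPCs neurons differed by 0.13 and against oligodendrocytes by 0.60, neither of which was called (adjusted p = 0.91 and 0.13), although DESeq2 called the second (1.22, adjusted p = 0.0054). The median gene stood at 0.38 and 0.33 in these contrasts, and at 0.64 in the second with DESeq2 size factors in edgeR. Against microglia, with 7 UMIs in all, neurons were higher by 1.71 (SE 0.50, adjusted p = 0.0027), where 22.7% of genes were higher, and the call was lost without the library block (1.53, adjusted p = 0.069) and with female libraries only (1.26, adjusted p = 0.17).

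**Figure D1:**
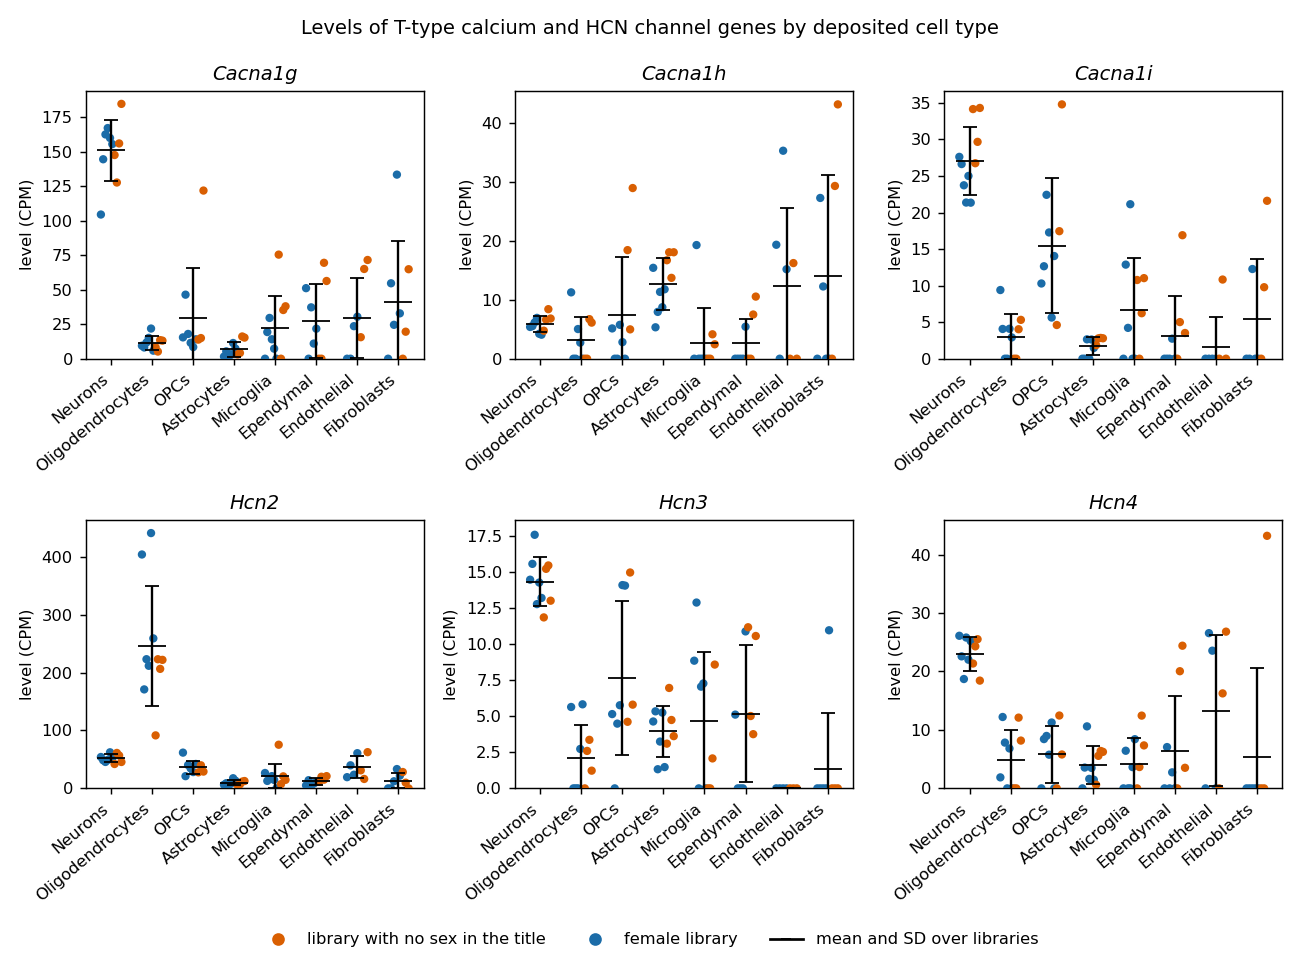
CPM of each of the 6 genes (vertical axes) in the 8 deposited cell types (horizontal axes), with 1 point per library (orange for the 4 libraries with no sex in the title, blue for the 6 female ones) and bars for the mean and SD. Hcn2 stands highest in oligodendrocytes at 245 ± 104 CPM, Cacna1g in neurons at 151 ± 22.1 CPM, and Cacna1h in neurons at 5.90 ± 1.36 CPM lies below its 12.7 ± 4.45 CPM in astrocytes.

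The second comparison asked how neurons of the PVT differ from those of neighbouring regions. The 10307 neurons with more than 1000 genes were split by markers that are not members: C1ql3, used by the study for the PVT, Adarb2 for the mediodorsal thalamus, Gad2 for GABAergic neurons and Nwd2 for the habenula. A nucleus was placed by the marker that most exceeded its threshold, which gave 4292 nuclei in the C1ql3 group (41.6%), 2047 in the Adarb2 group (19.9%), 234 in the Gad2 group (2.27%, 7 libraries) and 907 in the Nwd2 group (8.80%). The remaining 2827 passed no threshold and entered no test, and 756 passed several. The Gad2 group was mixed: it held Gad1 at 51.9 CPM and Slc32a1 at 61.1 CPM but also Slc17a6, the glutamatergic transporter, at 353 CPM, so it is called only by its marker. The median nucleus had 12775.5 UMIs in the C1ql3 group, 12735 in the Adarb2 group, 11388.5 in the Gad2 group and 7334 in the Nwd2 group.

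The members did not move together. Among the 4 marker groups Cacna1g, Hcn2 and Hcn4 were highest or near highest in the Adarb2 group, Cacna1h and Cacna1i were higher in the C1ql3 than in the Adarb2 group, and the Nwd2 group combined the lowest Cacna1g, Cacna1h and Hcn2 with a high Hcn4. All 6 members passed the filter here, and 16 of 24 tests against the mean of the other groups were called, 9 higher and 7 lower. In the C1ql3 group 4 members were higher and none lower, where 11.4% of 12229 genes were higher and 7.32% lower. In the Adarb2 group 3 were higher and 3 lower (13.2% and 12.8% of genes). In the Gad2 group 1 was higher and 1 lower (7.24% and 3.57%), and in the Nwd2 group 1 was higher and 3 were lower (20.4% and 20.2%).

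Of the T-type genes, Cacna1g was at 159 CPM in the lowest, 216 CPM in the median and 231 CPM in the highest library of the Adarb2 group (207 ± 23.8, n = 10). In the C1ql3 group it was at 131, 148 and 177 CPM (149 ± 15.3, n = 10), and in the Nwd2 group at 4.57, 20.5 and 69.5 CPM (25.6 ± 18.4, n = 10). The Nwd2 group lay below the other pair in every library without overlap, and 10 of 10 libraries had the Adarb2 group above the other groups' mean. The Adarb2 group exceeded the Nwd2 group by 3.38 (SE 0.15, adjusted p = 9.6e-23, edgeR) and the C1ql3 group exceeded it by 2.79 (SE 0.15, adjusted p = 9.5e-20). In these contrasts 20.8% and 21.2% of genes were higher. Between the thalamic groups the difference was smaller, at -0.59 for C1ql3 against Adarb2 (SE 0.09, adjusted p = 8e-07), where 10.1% of genes were lower. After thinning, Cacna1g was seen in 30.9 ± 5.71% of the Adarb2 group, 24.5 ± 2.24% of the C1ql3 group and 2.63 ± 2.20% of the Nwd2 group, the last close to the 2.03 ± 1.90% of microglia.

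Cacna1h was low in absolute counts but differed by group. It was at 4.87 CPM in the lowest, 7.23 CPM in the median and 9.86 CPM in the highest library of the C1ql3 group (7.33 ± 1.89, n = 10) and at 0.80, 2.59 and 4.26 CPM in the Adarb2 group (2.25 ± 1.20, n = 10). The Nwd2 group had 0 UMIs in the median library and 1.77 CPM in the highest (0.50 ± 0.80, n = 10). It held 7 UMIs in 907 nuclei, so the size of any fold that includes it, also through a mean of groups, is uncertain. C1ql3 values thus lay above all Adarb2 and Nwd2 values. The C1ql3 group was uneven, however: of its 495 UMIs, 283 lay in the 862 nuclei split off below by Cadps2. Those split off by Col12a1 were at 1.63 ± 2.03 CPM (n = 10), under the mean of the Adarb2 group. The C1ql3 group exceeded the Adarb2 group by 1.67 (SE 0.20, adjusted p = 4.9e-09, edgeR), where 11.8% of genes were higher, and the Nwd2 group by 3.08 (SE 0.39, adjusted p = 4.7e-09). The Gad2 group ranged from 5.07 to 52.0 CPM with a median of 13.4 (18.7 ± 15.5, n = 7), exceeded the other groups' mean in 7 of 7 libraries and was called at 2.52 (SE 0.32, adjusted p = 1e-07). Its highest value rests on 4 UMIs in the 11 nuclei of female replicate 2. The call of the C1ql3 group below the Gad2 group (-0.93, adjusted p = 0.029), where 3.09% of genes were lower, was lost without that library (-0.75, adjusted p = 0.096) and without replicate 3 (-1.08, adjusted p = 0.12) or replicate 4 of the first set (-0.72, adjusted p = 0.26). The Adarb2 group was called below the mean of the others at -0.95 (SE 0.29, adjusted p = 0.0067), which did not pass without replicate 4 of the first set (-0.80, adjusted p = 0.067).

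Cacna1i, too, was higher in the C1ql3 group taken as a whole. It was at 26.3 CPM in the lowest, 29.8 CPM in the median and 40.9 CPM in the highest library there (31.8 ± 5.29, n = 10) against 10.6, 13.2 and 20.5 CPM in the Adarb2 group (14.9 ± 4.00, n = 10). The ranges did not overlap. The C1ql3 group was higher by 1.03 (SE 0.12, adjusted p = 8.2e-10, edgeR). Its nuclei split off below by Cadps2 were at 10.7 ± 4.98 CPM (n = 10), under the mean of the Adarb2 group. The Nwd2 group had 23.1 ± 8.31 CPM (n = 10) and the C1ql3 group exceeded it by 0.68 (SE 0.15, adjusted p = 1.4e-04), while the Gad2 group varied widely at 33.9 ± 18.7 CPM (n = 7). Taken as a whole, the Adarb2 group was thus the one high in Cacna1g and low in Cacna1i. Its nuclei came from unlike deposited clusters: 1069 from Neurons (3), 406 from Neurons (7) and 351 from Neurons (8). These whole clusters had Cacna1i at 5.24 ± 3.30, 36.5 ± 15.8 and 19.7 ± 5.60 CPM (n = 10 each). Their Cacna1g was at 236 ± 25.7, 156 ± 20.5 and 193 ± 29.2 CPM.

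Of the HCN genes, Hcn2 was at 48.3 CPM in the lowest, 61.5 CPM in the median and 78.3 CPM in the highest library of the Adarb2 group (62.6 ± 10.4, n = 10) and at 10.5, 32.3 and 46.3 CPM in the Nwd2 group (31.3 ± 10.4, n = 10). These ranges did not overlap, and they differed by 1.43 (SE 0.13, adjusted p = 3.2e-12, edgeR). The C1ql3 group lay between, at 48.7 ± 7.01 CPM (n = 10), with -0.51 against the Adarb2 group (SE 0.09, adjusted p = 8.6e-06) and 0.92 against the Nwd2 group (SE 0.14, adjusted p = 1.9e-07). The first of these sat at the edge of the fold threshold and fell under it, to -0.48 or -0.49, without female replicate 2, replicate 1 or replicate 3 of the first set.

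Of the 4 marker groups Hcn3 was highest in the C1ql3 group, at 13.8 CPM in the lowest, 15.6 CPM in the median and 21.0 CPM in the highest library (15.9 ± 2.09, n = 10), against 8.58 ± 3.82 CPM in the Adarb2 group (n = 10), 8.54 ± 6.44 CPM in the Nwd2 group (n = 10) and 12.4 ± 6.90 CPM in the Gad2 group (n = 7). Neurons over no threshold, which entered no test, were higher still at 19.8 ± 3.35 CPM (n = 10). The C1ql3 group exceeded the other marker groups' mean in 10 of 10 libraries, although its range overlapped with theirs. It exceeded the Adarb2 group by 0.81 (SE 0.14, adjusted p = 1e-05) and the Nwd2 group by 0.74 (SE 0.20, adjusted p = 0.0016, edgeR). Against the mean of the others its 0.52 (SE 0.14, adjusted p = 0.0025) fell to 0.48 without female replicate 4 and to 0.45 without replicate 1 of the first set, under the fold threshold. The call of the Adarb2 group below the mean (-0.57, adjusted p = 0.0036) was lost without female replicate 2 (-0.49), replicate 3 (-0.45) or replicate 4 of the first set (-0.48).

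Hcn4 went the other way. It was at 17.1 CPM in the lowest, 30.1 CPM in the median and 49.0 CPM in the highest library of the Nwd2 group (31.1 ± 7.85, n = 10), at 20.6, 31.7 and 38.9 CPM in the Adarb2 group (30.4 ± 6.40, n = 10) and at 17.7, 20.3 and 24.8 CPM in the C1ql3 group (20.4 ± 2.22, n = 10). The ranges overlapped, with most values of the C1ql3 group below those of the other pair. The C1ql3 group was lower than the Adarb2 group (-0.65, SE 0.10, adjusted p = 1.8e-06, edgeR) and lower than the Nwd2 group (-0.74, SE 0.13, adjusted p = 6.4e-06), where 20.7% of genes were lower. In the Gad2 group it was at 10.9 ± 10.2 CPM (n = 7) and below the mean of the others (-0.99, SE 0.23, adjusted p = 0.002), a call that was lost with female libraries only (adjusted p = 0.16), with nuclei over exactly 1 marker (0.15), with thresholds of 200 CPM (0.16) and with nuclei grouped after thinning to 5000 UMIs (0.39). The calls of Hcn4 above the mean in the Adarb2 group (0.58, adjusted p = 7.6e-05) and the Nwd2 group (0.71, adjusted p = 3.6e-05) fell under the fold threshold, to 0.27 and 0.41, when the Gad2 group was left out of the fit. With female libraries only, the C1ql3 and Nwd2 groups no longer differed by the test for Cacna1i (0.53, adjusted p = 0.099), Hcn3 (0.64, adjusted p = 0.17) and Hcn4 (-0.46, adjusted p = 0.11).

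**Figure D2:**
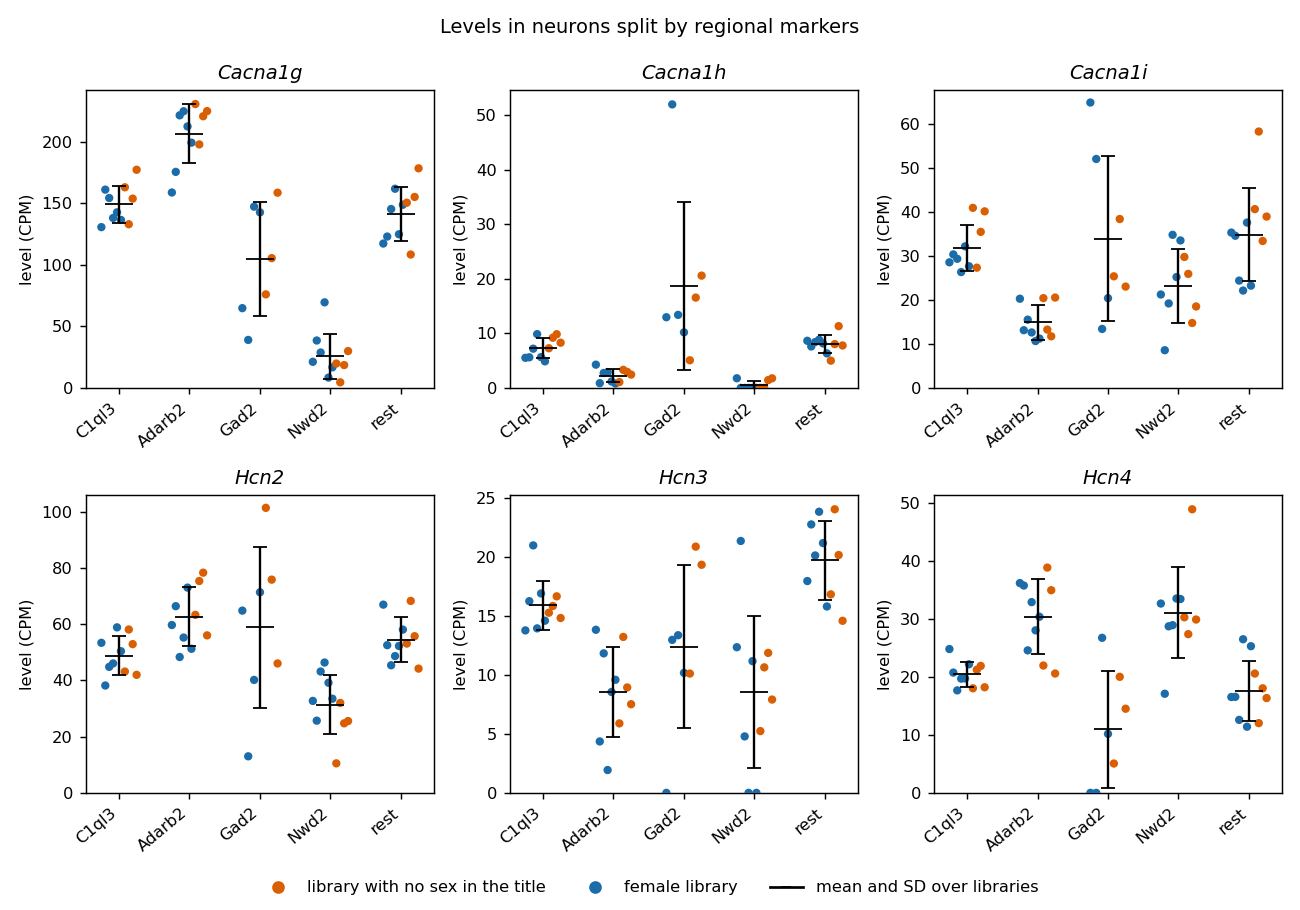
CPM of each of the 6 genes (vertical axes) in neurons grouped by C1ql3, Adarb2, Gad2 or Nwd2 and in neurons over no threshold (horizontal axes), with 1 point per library (orange for no sex in the title, blue for female) and bars for the mean and SD. Cacna1g falls from 207 CPM in the Adarb2 group to 25.6 CPM in the Nwd2 group, whereas Hcn4 is close to 31 CPM in both.

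The third comparison asked whether PVT neurons differ among themselves. The 4292 nuclei of the C1ql3 group were split by Col12a1, Cadps2 and Npsr1, markers of PVT subtypes in the study, into 786 (18.3%), 862 (20.1%) and 189 nuclei (4.40%, 5 libraries), with 2455 over no threshold (57.2%) and 202 over several. Of the Cadps2 group 612 nuclei came from the deposited cluster Neurons (4), and of the Col12a1 group 720 came from Neurons (1). Cadps2 was at 1097 ± 153 CPM in its own group, a high level that the split by this gene fixed in advance. The Npsr1 group also held Cadps2 at 334 CPM. Median depth was similar, at 14155 UMIs in the Col12a1, 12395.5 in the Cadps2, 13611 in the Npsr1 and 12401 in the remaining nuclei.

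The T-type genes Cacna1h and Cacna1i changed in opposite directions between the subtypes, and Cacna1g did not pass the test in any. Of 24 tests against the mean of the other groups 7 were called, 4 higher and 3 lower. In the Cadps2 group 2 members were higher and 1 lower, where 6.57% of 10817 genes were higher and 5.82% lower. In the Col12a1 group 1 was higher and 1 lower (5.81% and 6.07% of genes), as in the nuclei over no threshold (3.01% and 2.26%). In the Npsr1 group 0 of 6 were called against this mean by edgeR, with 1 member, Cacna1h, at an unadjusted p under 0.05, where 2.94% of genes were higher and 2.62% lower. Direct contrasts of the Npsr1 group with the others were called for Cacna1h and Cacna1i and are given below.

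Cacna1h was at 4.71 CPM in the lowest, 18.9 CPM in the median and 41.0 CPM in the highest library of the Cadps2 group (20.7 ± 9.67, n = 10). In the Col12a1 group it was at 0 CPM in the lowest, 0.88 CPM in the median and 5.47 CPM in the highest library (1.63 ± 2.03, n = 10), and in nuclei over no threshold at 1.01, 4.99 and 5.59 CPM (4.14 ± 1.72, n = 10). The Cadps2 group exceeded the Col12a1 group in 10 of 10 libraries and the nuclei over no threshold in 9 of 10, although the lowest Cadps2 library fell within both ranges. The Col12a1 group stood at -3.70 on the log2 scale against the Cadps2 group (SE 0.27, adjusted p = 5e-20, edgeR), where 10.5% of genes were lower. Against nuclei over no threshold the Cadps2 group was higher by 2.24 (SE 0.17, adjusted p = 8.7e-19), where 7.12% of genes were higher. The 5 libraries with enough Npsr1 nuclei gave a level of 9.48 ± 5.66 CPM, between the others. Against the Npsr1 group the Col12a1 group stood at -2.58 (adjusted p = 7.7e-06, edgeR) and the Cadps2 group at 1.12 (adjusted p = 0.0079). The Npsr1 group stood at 1.12 against nuclei over no threshold (adjusted p = 0.027). These calls were lost in 2, 7 and 7 of 21 alternative settings. After thinning, 3.90 ± 2.17% of the Cadps2 and 0.19 ± 0.40% of the Col12a1 group had a UMI, beside 0.44% of oligodendrocytes, and without thinning 20.7% and 2.15%. The Col12a1 value was thus no higher than that of oligodendrocytes. The call of Cacna1h below the mean in nuclei over no threshold (-0.63, adjusted p = 0.034) was lost without any of 4 libraries, at an adjusted p of 0.063 without female replicate 4 and of 0.053, 0.78 and 0.075 without replicates 2, 3 and 4 of the first set.

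Cacna1i had the reverse order. It was at 37.3 CPM in the lowest, 44.0 CPM in the median and 60.3 CPM in the highest library of the Col12a1 group (48.1 ± 7.41, n = 10), at 26.7, 34.4 and 45.8 CPM in nuclei over no threshold (35.3 ± 6.49, n = 10) and at 4.43, 11.4 and 19.6 CPM in the Cadps2 group (10.7 ± 4.98, n = 10). The 5 Npsr1 values ran from 6.28 to 25.4 CPM (18.2 ± 7.76). Against the Npsr1 group the Col12a1 group stood at 1.24 (adjusted p = 2.4e-07, edgeR) and the Cadps2 group at -0.94 (adjusted p = 0.0056). The Npsr1 group stood at -0.80 against nuclei over no threshold (adjusted p = 0.0013). These calls were lost in 3, 6 and 4 of 22 alternative settings. The Cadps2 group lay wholly below the Col12a1 group and below the nuclei over no threshold. The Col12a1 group exceeded the Cadps2 group by 2.18 (SE 0.13, adjusted p = 2.2e-24, edgeR), where 8.57% of genes were higher. The Cadps2 group stood at -1.74 against the nuclei over no threshold (SE 0.12, adjusted p = 9.1e-21), where 6.86% of genes were lower, and at -1.62 against the mean of the other groups (SE 0.14, adjusted p = 2.2e-16). With the female libraries alone the last value was -1.46 and missed the threshold (adjusted p = 0.066). The thinned share was 12.3 ± 6.99% in the Col12a1 and 2.11 ± 2.63% in the Cadps2 group, beside 0.28 ± 0.47% of oligodendrocytes. Unthinned it was 44.5% and 10.8%.

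A like contrast stood in the deposited clusters, which the study built from the most variable genes of the same nuclei and which give a description only. Neurons (4) had 22.2 ± 6.60 CPM of Cacna1h and 6.50 ± 4.20 CPM of Cacna1i, and Neurons (1) had 3.14 ± 1.24 and 41.6 ± 7.81 CPM (n = 10 each). Besides 720 nuclei of the Col12a1 group, Neurons (1) held 1488 C1ql3 nuclei over no threshold, so it does not stand for the Col12a1 group alone. Neurons (3), which held 1069 of the 2047 nuclei of the Adarb2 group, had 236 ± 25.7 CPM of Cacna1g and 0.99 ± 0.80 CPM of Cacna1h.

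Among the HCN genes only Hcn3 was called between PVT subtypes. It was at 4.55 CPM in the lowest, 19.3 CPM in the median and 35.7 CPM in the highest library of the Cadps2 group (19.6 ± 8.05, n = 10), against 13.4 ± 4.56 CPM in the Col12a1 group (n = 10). The ranges overlapped widely. The Cadps2 group was above the mean of the others by 0.55 (SE 0.14, adjusted p = 0.0011, edgeR) and the Col12a1 group stood at -0.65 against it in the direct contrast (SE 0.16, adjusted p = 5.5e-04). Without replicate 3 of the first set these became 0.34 (adjusted p = 0.21) and -0.48 (adjusted p = 0.07), and without female replicate 3 the first became 0.49, so the calls rest on single libraries.

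Hcn2 was at 42.0 ± 10.3 CPM in the Cadps2, 45.4 ± 16.9 CPM in the Col12a1 and 51.6 ± 7.95 CPM in the nuclei over no threshold (n = 10 each). Its difference in the Cadps2 group, -0.34 (SE 0.09, adjusted p = 0.0032, edgeR), passed the p threshold but not that of the fold. Hcn4 was at 18.6 ± 6.83 CPM in the Cadps2, 24.8 ± 10.4 CPM in the Col12a1 and 20.5 ± 3.45 CPM in the remaining nuclei, and Cacna1g at 141 ± 26.4, 156 ± 16.4 and 149 ± 17.4 CPM. In direct contrasts of the groups, too, neither Cacna1g, Hcn2 nor Hcn4 was called.

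Transcripts of glia in the neuronal sums were measured beside these results. The summed glial markers reached 20.5 to 79.6 CPM in the Cadps2 group (median 48.6), 17.5 to 137 CPM in the Col12a1 group (median 36.0) and 19.1 to 92.2 CPM in the remaining nuclei (median 50.2). In the Nwd2 group they were at 35.0 to 116 CPM (median 73.2), and in astrocytes themselves at 836 to 2224 CPM (median 2040). The ranges of the neuronal groups overlapped, and the part of glial RNA in the members' levels was not tested.

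**Figure D3:**
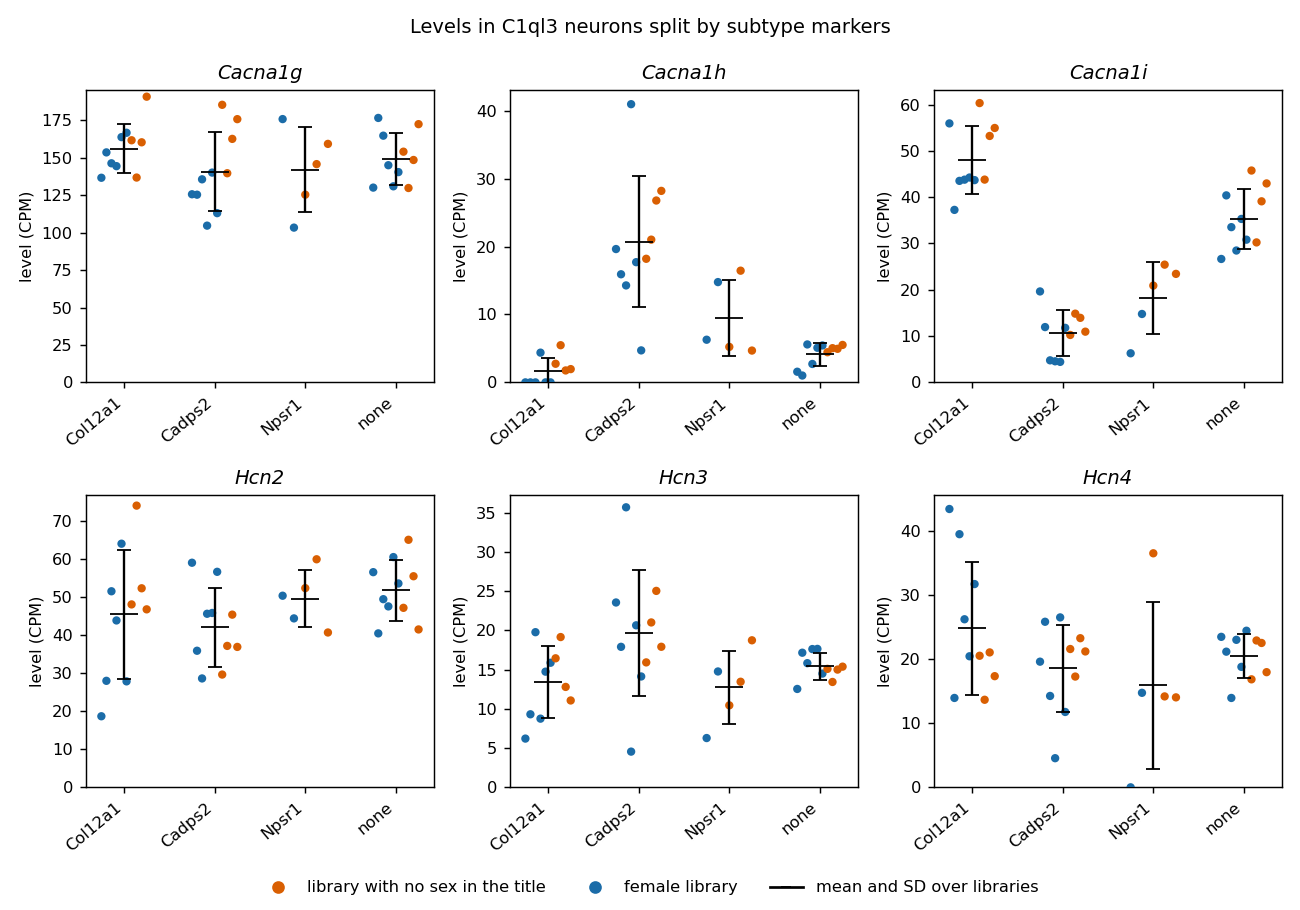
CPM of each of the 6 genes (vertical axes) in nuclei of the C1ql3 group split by Col12a1, Cadps2 or Npsr1 and in those over no threshold (horizontal axes), with 1 point per library (orange for no sex in the title, blue for female) and bars for the mean and SD. Cacna1h stands at 20.7 CPM in the Cadps2 and 1.63 CPM in the Col12a1 group, and Cacna1i at 10.7 and 48.1 CPM.

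**Figure D4:**
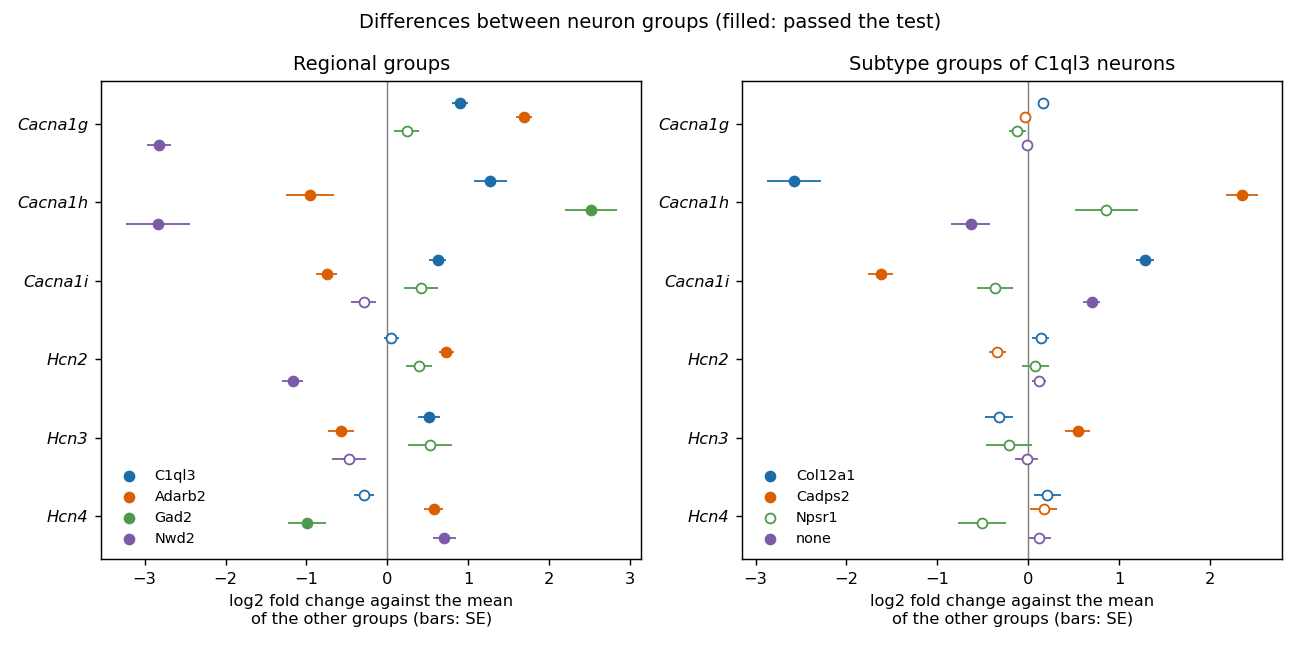
Log2 fold change of each of the 6 genes against the mean of the other groups (horizontal axis) for regional groups on the left and PVT subtype groups on the right, with bars for the SE and filled points where the test was passed. Between regional groups Cacna1h runs from 2.52 in the Gad2 group to -2.83 in the Nwd2 group and Cacna1g from 1.69 in the Adarb2 group to -2.82 in the Nwd2 group, and between subtypes Cacna1h runs from 2.35 in the Cadps2 group to -2.58 in the Col12a1 group. The Nwd2 group held 7 UMIs of Cacna1h, so the size of its regional folds is uncertain.

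Partners of these channels were followed as fixed lists. The HCN list held the auxiliary genes Pex5l (TRIP8b), Kctd3, Kcne2, Mrvi1 and Lrmp, of which 3 of 5 passed the filter in neurons. In the C1ql3 group 0 were higher and 1 lower, beside 11.4% and 7.32% of all genes, with a median log2 fold change of 0.10 beside -0.01 for all genes tested. In the Adarb2 group 2 were higher and 0 lower, beside 13.2% and 12.8% of all genes (median 1.10 beside -0.02). In the Gad2 group the counts were 0 and 2, beside 7.24% and 3.57% (median -0.97 beside -0.02), and in the Nwd2 group 1 and 1, beside 20.4% and 20.2% (median -0.49 beside 0.06). Pex5l, which governs the trafficking and cAMP response of HCN channels, was lower in the C1ql3 group (-1.76, SE 0.14, adjusted p = 4e-14, edgeR) and the Gad2 group (-0.97) and higher in the Adarb2 (1.10) and Nwd2 (1.63) groups. Mrvi1, whose product binds HCN4, was at 4.31 in the Adarb2, -1.46 in the Gad2 and -2.96 in the Nwd2 group.

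In the subtypes the HCN list had 2 members higher and 0 lower in the Col12a1 group, beside 5.81% and 6.07% of all genes (median 0.96 beside -0.03), and 0 and 2 in the Cadps2 group, beside 6.57% and 5.82% (median -0.92 beside 0.04). Pex5l was higher in the Col12a1 (1.09, SE 0.09, adjusted p = 2.2e-16, edgeR) and lower in the Cadps2 group (-0.94), as was Mrvi1 (0.96 and -0.92). In the Npsr1 group 2 were lower, Mrvi1 (-1.39) and Pex5l (-0.69), beside 2.62% of all genes. In oligodendrocytes, where Hcn2 was highest, Pex5l stood at 5.42 against the mean of the other types (SE 0.18, adjusted p = 1.1e-39) and Kctd3, an HCN3 partner, at 2.75, while Mrvi1 (-1.24) was lower.

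The list of T-type partners held Klhl1, an actin-binding protein that raises T-type current, the ubiquitin enzymes Usp5 and Wwp1 that act on Cav3.2, Stac, an adaptor that increases its surface expression, and the chaperone Canx. In the Nwd2 group 3 of 5 were higher and 0 lower, beside 20.4% and 20.2% of all genes (median 0.84 beside 0.06), namely Klhl1 (4.91, SE 0.20, adjusted p = 7.9e-24, edgeR), Stac (1.85) and Wwp1 (0.84). In the C1ql3 group 0 were higher and 2 lower, Klhl1 (-4.43) and Stac (-1.17), beside 11.4% and 7.32% of all genes (median -0.27 beside -0.01). The same counts held in the Adarb2 group, beside 13.2% and 12.8% (median -0.40 beside -0.02). Within the PVT, Stac was higher in the Cadps2 group (1.39, SE 0.13, adjusted p = 5.1e-15) and lower in the Col12a1 group (-1.50, SE 0.18, adjusted p = 7.1e-11), where Usp5 was lower as well (-0.54), beside 6.57% of all genes higher in the Cadps2 and 6.07% lower in the Col12a1 group. Of the 4 list members that passed the filter there, none other was called in the Cadps2 group.

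The third list held channels of afterpotentials and leak: the small-conductance calcium-activated potassium channels Kcnn1, Kcnn2 and Kcnn3, the leak channels Kcnk3, Kcnk9 and Nalcn, and Kcnd2, which carries A-type current. In the Nwd2 group 4 of 6 that passed the filter were higher and 0 lower, beside 20.4% and 20.2% of all genes, with a median of 0.80 beside 0.06. These were Kcnk9 (1.81), Kcnd2 (1.15), Kcnn2 (0.86) and Kcnk3 (0.75). In the Adarb2 group 1 was higher and 2 lower, Kcnk3 at 0.79 and Kcnn2 at -0.82 among them (median -0.02 beside -0.02), and in the C1ql3 group 0 and 2 (median -0.19 beside -0.01). The shares of all genes were 13.2% and 12.8% in the Adarb2 and 11.4% and 7.32% in the C1ql3 group. Among PVT subtypes Kcnk3 (0.65) and Kcnn2 (0.51) were higher in the Col12a1 group and Kcnk3 lower in the Cadps2 group (-0.62), beside 5.81% and 5.82% of all genes.

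The last comparison set the 6 female libraries against the 4 of the first set, over sums of all neurons. None of the 6 members was called by edgeR, beside 6.05% of 15261 genes higher and 7.45% lower in female libraries, and 1 had an unadjusted p under 0.05. DESeq2 also called 0. That member was Cacna1i, at 21.4 to 27.6 CPM in female libraries (median 24.4) and 26.7 to 34.3 CPM in the first set (median 31.9). Its difference of -0.46 (SE 0.13, adjusted p = 0.027) lay under the fold threshold, and passed it without the filter on low counts (-0.50, adjusted p = 0.018) and without replicate 2 of the first set (-0.53, adjusted p = 0.0059). The sets differ in sex, depth and gene annotation, which cannot be told apart in this contrast. Whether a difference between groups of cells depended on the set was tested in 64 interaction terms, of which 0 were called, beside 0.258% of all such terms over all genes, and 4 had an unadjusted p under 0.05, with a lowest adjusted p of 0.22.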

How the data were processed

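The authors aligned and counted reads of 10x Genomics Chromium 3′ single-nucleus libraries (Cell Ranger 6.1.1 and mm10 in the submitters' processing notes) and deposited raw UMI counts of 33502 symbols in 20503 nuclei. The percent of mitochondrial UMIs per nucleus, computed and deposited by the authors, was at most 4.99, and the fewest genes in a nucleus were 278. The matrix sum equalled the deposited UMI total in all 20503 nuclei. Another 21 metadata columns were not used here. The members, the gene lists, the markers and the rule that split the neurons were chosen with earlier results of these data known.

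Cell types are the deposited names. Neurons with more than 1000 genes were split by marker CPM with an Otsu threshold on log2(CPM + 50), which came to 96.5 CPM for C1ql3, 173 for Adarb2, 55.0 for Gad2 and 493 for Nwd2, with at least 2 UMIs of the marker. C1ql3 nuclei were split likewise at 65.7 CPM for Col12a1, 173 for Cadps2 and 91.4 for Npsr1. For each library and class, UMIs of all but 13 mitochondrial genes were added up where at least 10 nuclei were present. These sums entered edgeR 4.0.16 under R 4.3.3, with TMM scaling, filterByExpr, the library as a block, the quasi-likelihood F test and Benjamini-Hochberg adjustment over all genes of a contrast. A gene was called at an adjusted p under 0.05 and an absolute log2 fold change over 0.5, and the SE is the fold change over the square root of F. TMM factors had medians of 0.887 in neurons to 1.25 in fibroblasts, so that printed CPM, which use plain totals, can differ from fitted folds. The named genes are the 6 members in every comparison and, of each list of partners, at most 4 called genes with the largest change. A gene of the partner lists is not reported here. The scripts were tested on simulated counts. Alternatives were DESeq2 1.42.0, its size factors, no filter, no block, other gates, each set of libraries alone and each library left out. Gene positions come from the GENCODE annotation of GRCm38.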

Additional observations from a re-analysis of the deposited data

Results flagged for a closer look

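Dixon's criterion for the gap beside the range flags about 1 in 20 groups of independent, normally distributed values. Many groups here are sparse counts and some share nuclei, so that rate is no measure for them. By this criterion a single library stood apart from the rest of its group in 13 of the 101 groups tested. Among neurons these were Hcn3 at 21.0 CPM in the C1ql3 group of female replicate 3 (38 UMIs, next library 16.9 CPM), Hcn4 at 49.0 CPM in the Nwd2 group of replicate 3 of the first set (103 UMIs, next 33.6), Cacna1g at 69.5 CPM in the Nwd2 group of female replicate 4 (12 UMIs, next 38.5), Cacna1h at 52.0 CPM in the Gad2 group of female replicate 2 (4 UMIs, next 20.6) and Cacna1i at 58.2 CPM in neurons over no threshold of replicate 2 of the first set (29 UMIs, next 40.6).

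The other 8 rest on few molecules in small classes. In microglia Cacna1g and Hcn2 were both at 75.4 CPM in replicate 1 of the first set (7 UMIs each in 27 nuclei, next 38.0 and 26.5), and Cacna1h was at 19.3 CPM in female replicate 2 (3 UMIs, next 4.15). In OPCs Cacna1g was at 122 CPM in replicate 4 of the first set (21 UMIs in 18 nuclei, next 46.4). Cacna1i was at 10.8 CPM in endothelial nuclei (2 UMIs, next 0) and at 16.9 CPM in ependymal nuclei (9 UMIs, next 5.01), both in replicate 3 of the first set. In fibroblasts Hcn3 was at 10.95 CPM in female replicate 5 (1 UMI, next 0) and Hcn4 at 43.2 CPM in replicate 4 of the first set (2 UMIs, next 0).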

How the results depend on the processing

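Across cell types 9 calls became 18 without the filter on low counts, when 48 instead of 16 tests were made. Across regional groups 16 calls became 10 with female libraries only and 9 without the Gad2 group, and across PVT subtypes 7 became 2 with female libraries only, 4 with nuclei over exactly 1 marker and 4 without the Npsr1 group. The alternatives without the Gad2 or the Npsr1 group were chosen after seeing the data. Between the sets of libraries 0 calls became 1 without the filter. Leaving out each library in turn gave 8 to 9, 15 to 17, 5 to 7 and 0 to 1 calls. Cacna1h in neurons against OPCs turned from 0.13 to -0.68 in the first set alone (adjusted p = 0.58) and Hcn3 in the Adarb2 against the Gad2 group from -0.82 to 0.27 in female libraries alone (adjusted p = 0.91), and the cause was not tested.

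Without the library as a block the calls were 9, 14 and 5. Between the sets, a replicate block over the shared numbers 1 to 4 gave 0 calls, as did the same libraries without it. Deviations of libraries with the same number correlated at -0.10, -0.13, -0.13 and 0.16 over 10032 genes, so the numbers are not taken to pair the libraries.

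Shares of neurons with a UMI depend on depth by construction: thinned to 2000 UMIs, to 4000 and not thinned they were 22.7, 41.7 and 62.5% for Cacna1g, 1.28, 2.41 and 5.53% for Cacna1h, 5.27, 10.1 and 22.1% for Cacna1i, 9.83, 18.5 and 38.3% for Hcn2, 3.54, 5.56 and 13.7% for Hcn3 and 3.86, 8.18 and 19.8% for Hcn4. Of the single contrasts called, 8 of 462 recomputed values across cell types, 69 of 925 across regional groups and 51 of 414 across subtypes no longer passed. The 462 cover neurons against astrocytes, oligodendrocytes, OPCs and microglia. For Cacna1g and Hcn2 they also cover neurons, oligodendrocytes and astrocytes against the mean of the other types. Other calls across cell types were not among them. Endothelial cells, fibroblasts and the Gad2 and Npsr1 groups are limited by their few nuclei.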

Other observations

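Genes whose levels ran most like those of a member were sought over 15 classes of nuclei, namely the 7 deposited types other than neurons, the Adarb2, Gad2 and Nwd2 groups, neurons over no threshold and the 4 groups within the C1ql3 neurons, among 15467 genes. The classes share libraries and depth, so the values are a description. Cacna1g was closest to L1cam (r = 0.98), Nell2 and Syt7, neuronal genes of adhesion and synaptic function, and Cacna1i to Zfp57 (0.96), Cadm3 and Khdrbs2. Hcn3 was closest to Rac3 (0.98), Pnma3 and Disp2, and Hcn4 to Gm15496 (0.94), Gm16982 and Mapk8. Hcn2 was closest to Ttll7 (0.93), Slc44a1, a choline transporter, and Rab33a. Cacna1h had no close match, with Gm9984 the nearest at 0.80. Among the members Cacna1i and Hcn3 ran closest (0.86), followed by Cacna1g and Cacna1i (0.82), while Cacna1h stayed between -0.04 and 0.29 with each of the others.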
